A study of Mus musculus with 18 samples.

Results

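The Schlafen family of the mouse was examined in eosinophils cultured with apoptotic cells (ACs). The family was taken as the 6 genes of the deposited table whose Ensembl identifier, with the version dropped, belongs to Slfn1, Slfn2, Slfn4, Slfn5, Slfn8 or Slfn9. These are 6 of the 54446 genes in the table, and all 6 passed the filter on low values (a mean normalized count of at least 10) in every fit. In the Type 1 experiment, the expression of Slfn4 rose with IFN-γ + ACs and was lower again when E. coli was added to IFN-γ. The mean of Slfn2 was lower with IFN-γ + E. coli + ACs, on widely spread libraries. In the IL-4 experiment no Schlafen gene passed the threshold, and in its ACs libraries 4 of the 6 genes were expressed at a lower level than in the ACs libraries of the Type 1 experiment.

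Eosinophils were obtained from the peritoneal cavity of NJ.1638 mice, which carry an Il5 transgene (Il5Tg) expressed in T cells and so hold eosinophils in excess. The labels give the strain as C57BL/6 and give no age. All 18 libraries come from eosinophils cultured for 18 h with ACs, namely wild-type thymocytes that dexamethasone had killed, given at 5 per eosinophil, so that the controls carry the ACs too. In the Type 1 experiment the groups were ACs, E. coli + ACs, IFN-γ + ACs and IFN-γ + E. coli + ACs, where the paper has IFN-γ given before E. coli. In the IL-4 experiment they were ACs and IL-4 + ACs, with 3 libraries per group in both experiments. The methods call them biological replicates, and where groups were not stated to come from separate mice the p-values measure only the spread between these libraries. After culture, eosinophils were purified again with beads against Siglec-F, and libraries were made from 2 ng of RNA with CEL-Seq2, which reads the 3′ end of transcripts.

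Between 779421 and 7782072 reads were counted on genes per library. The replicate 3 libraries of IL-4 + ACs and of ACs in the IL-4 experiment held 849705 and 779421 reads, and in them 3 reads stand for normalized counts of 15.42 and 16.08. Of the eosinophil surface markers, Siglecf had group means from 1630 to 3237 and Ccr3 from 2974 to 4498 in the Type 1 experiment, whereas Epx, which encodes the granule enzyme eosinophil peroxidase, had means from 0.46 to 2.33 there. Markers of macrophages were also present, with 9 or 10 of 10 above 0 in every library. The summed markers of B cells, neutrophils and mast cells stayed at or below 90.8, 43.1 and 66.5.

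Schlafen proteins share a core with the fold of RNA-cleaving enzymes. The name, from the German word for sleep, comes from the growth arrest that the founding member caused in thymocytes. The short members, Slfn1 and Slfn2, hold little beyond this core, Slfn4 is intermediate, and the long members, Slfn5, Slfn8 and Slfn9, add a helicase-like part. Many family members are raised by interferons and bacterial products in macrophages, and several restrict viruses or cleave transfer RNA. Slfn2 keeps T cells and monocytes quiescent and shields transfer RNA from cleavage, and Slfn4 is known from myeloid cells.

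The 6 genes lie together on chromosome 11 of GRCm38, from 82951349 to 83190216, a stretch of 238.9 kb. Slfn5 (82951349 to 82964840), Slfn2 (83065112 to 83070678), Slfn1 (83116849 to 83122670) and Slfn4 (83175186 to 83190216) are on the plus strand, whereas Slfn9 (82978390 to 82991830) and Slfn8 (83002158 to 83020810) are on the minus strand. The coding sequence spans 1011 bases in Slfn1, 1134 in Slfn2, 1806 in Slfn4, 2652 in Slfn5 and 2730 in each of Slfn8 and Slfn9, so the sizes follow the short, intermediate and long classes. Slfn8 and Slfn9 were the most alike pair of the 6, with 92.7% of 2730 aligned coding bases identical. Between the other pairs of members identity ranged from 62.6% to 75.9%.

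Since CEL-Seq2 reads the 3′ end, the last 500 bases of each gene's longest transcript were compared with all other annotated transcripts. In Slfn8, 3.1% of the stretches of 50 bases in this part also occurred elsewhere, in Slfn9, and in the other 5 genes none did. The 3′ end of Slfn2 lies opposite an antisense gene, Gm20234, which had normalized counts from 19.71 to 69.92. Whether strand was used in counting is not given in the sources used here, so reads of this pair may not be separable. Slfn5os, antisense to Slfn5, was listed at 0 in all 18 libraries.

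The sequences upstream of the annotated starts are shown because several members answer to interferon in other cells, so that a match to an interferon response element can be read beside the changes. The RefSeq table of GRCm38.p6 held a promoter for all 6 genes, and for Slfn1 and Slfn5 its start differs from the gene start given above. In the 120 bases upstream of the start of Slfn1, Slfn2 and Slfn4, capitals mark a run of 11 bases that all 3 share, and in Slfn8 and Slfn9 they mark a match to the core of the interferon-stimulated response element (ISRE).
Slfn1, chr11:83116700-83116819, plus strand: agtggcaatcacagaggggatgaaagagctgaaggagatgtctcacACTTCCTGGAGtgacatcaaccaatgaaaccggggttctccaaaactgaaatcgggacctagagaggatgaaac
Slfn2, chr11:83064992-83065111, plus strand: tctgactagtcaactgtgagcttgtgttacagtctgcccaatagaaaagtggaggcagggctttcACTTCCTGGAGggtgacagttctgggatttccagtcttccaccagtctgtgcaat
Slfn4, chr11:83175066-83175185, plus strand: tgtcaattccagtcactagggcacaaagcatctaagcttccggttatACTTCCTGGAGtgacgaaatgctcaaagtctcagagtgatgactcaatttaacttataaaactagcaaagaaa
Slfn8, chr11:83020811-83020930, minus strand: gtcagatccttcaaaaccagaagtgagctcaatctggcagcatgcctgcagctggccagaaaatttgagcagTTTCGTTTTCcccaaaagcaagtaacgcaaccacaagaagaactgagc
Slfn9, chr11:82991831-82991950, minus strand: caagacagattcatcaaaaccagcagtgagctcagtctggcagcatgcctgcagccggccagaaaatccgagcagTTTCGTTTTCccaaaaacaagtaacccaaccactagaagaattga
For Slfn5 the 250 bases upstream are given, because its ISRE match lies farther out.
Slfn5, chr11:82951852-82952101, plus strand: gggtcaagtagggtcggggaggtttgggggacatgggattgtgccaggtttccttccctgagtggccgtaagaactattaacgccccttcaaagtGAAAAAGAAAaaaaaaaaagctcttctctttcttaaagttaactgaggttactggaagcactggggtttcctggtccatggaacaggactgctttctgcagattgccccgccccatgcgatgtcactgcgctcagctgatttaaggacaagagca

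The ISRE core was searched as GAAA, any 2 bases and GAAA, on both strands of windows from 250 bases upstream to 50 bases downstream of the start. It was found in Slfn5 (beginning 155 bases upstream), Slfn8 (48 bases) and Slfn9 (45 bases), and in 3.4% of 32851 promoters. The match reads GAAAAAGAAA in Slfn5 and, on the gene's strand, TTTCGTTTTC in Slfn8 and Slfn9. The core of the IFN-γ-activated site, TTCNNNGAA with N as any base, was found in none of the 6 and in 8.3% of all promoters. The shared run ACTTCCTGGAG begins 74 bases upstream in Slfn1, 55 in Slfn2 and 73 in Slfn4, and is found in 24 promoters in all (0.073%), but it was picked because these 3 genes share it. These are matches of letters in the window and no measurement of binding.

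**Figure D1:**
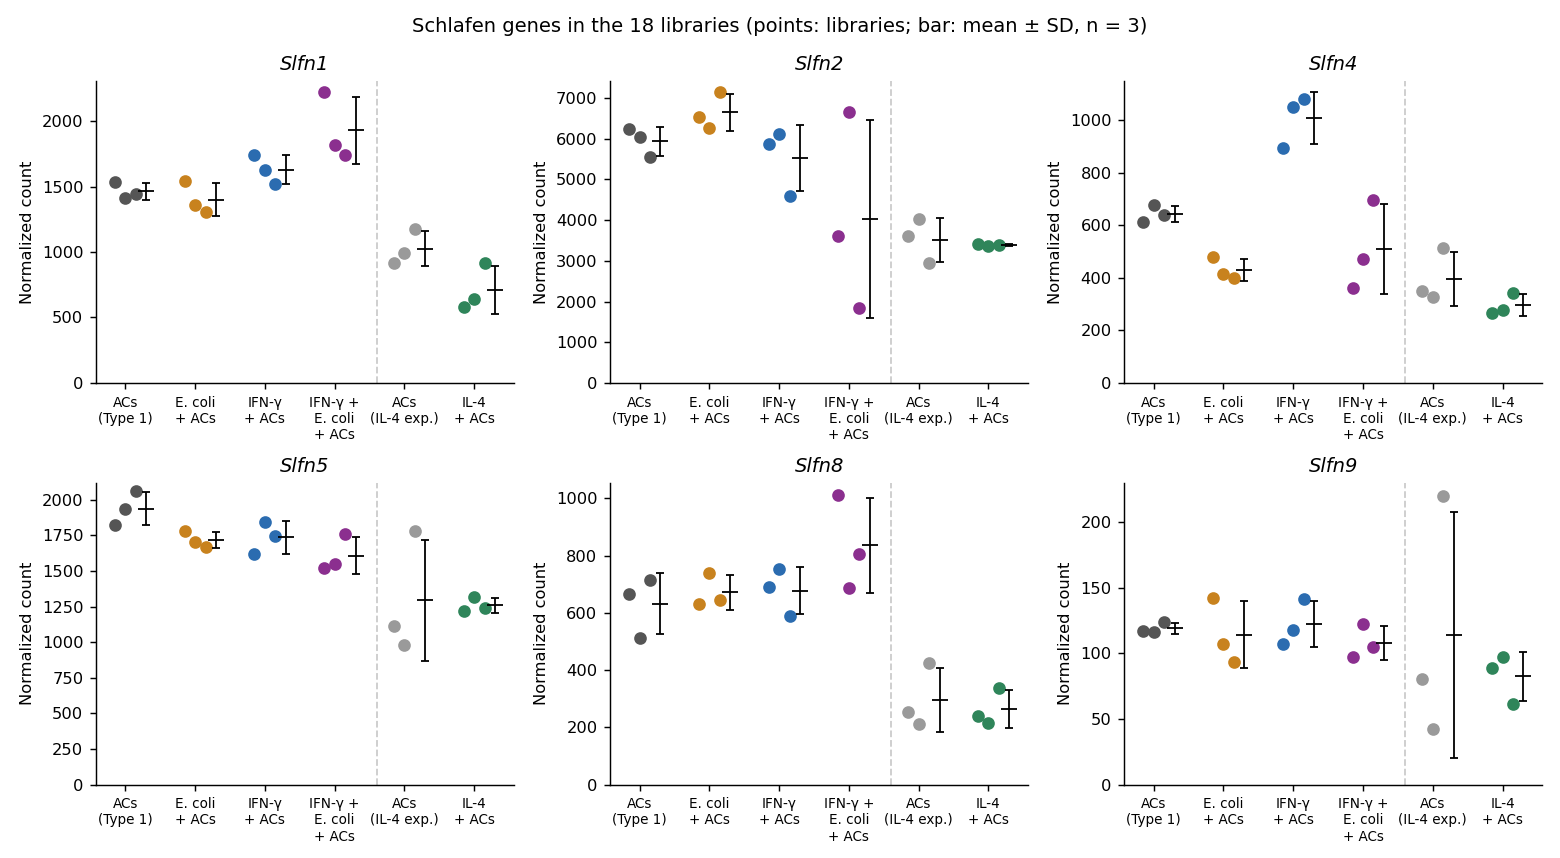
Normalized counts of the 6 Schlafen genes (vertical axes, from 0) in the 18 libraries, by group (horizontal axes), with the Type 1 experiment left and the IL-4 experiment right of the dashed line. Points are libraries and bars give the mean ± SD (n = 3). Slfn4 stands apart in IFN-γ + ACs, Slfn2 spreads from 1845 to 6659 in IFN-γ + E. coli + ACs, and Slfn1 and Slfn8 are lower in every library of the IL-4 experiment than in any library of the Type 1 experiment.

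Changes were called with limma at an adjusted p under 0.05 and at least 1.5-fold. The expression of Slfn4, a myeloid member, was the only one of the 6 to pass this threshold with IFN-γ + ACs, where 21.4% of 10166 genes did, 11.4% as higher. Its normalized counts were 614, 677 and 639 with ACs. With IFN-γ + ACs they were 896, 1050 and 1079. All 3 libraries with IFN-γ lay above all 3 with ACs, the one such separation among the 6 members, against 42.9% of all genes. The means were 643 ± 32 and 1008 ± 99 (SD, n = 3), a 1.56-fold rise (log2 0.64, SE 0.17, adjusted p = 0.0091 by limma). This call held when any of the 12 libraries was left out (log2 0.59 to 0.73). It was lost with libraries scaled to a common upper quartile (log2 0.55, adjusted p = 0.025), since the change then fell short of 1.5-fold.

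With E. coli + ACs, no Schlafen gene passed the threshold by limma, where 10.3% of all genes did. At an unadjusted p under 0.05 the count was 1, and it was 1 by edgeR and 0 by DESeq2. The gene concerned was Slfn4. Its normalized counts with E. coli + ACs were 478, 414 and 401, all below the ACs libraries. Slfn2 and Slfn5 did not overlap between these groups either, which makes 3 of 6 members, against 38.3% of all genes. The difference was a log2 change of -0.58 (SE 0.17, adjusted p = 0.032 by limma), 0.669 of the ACs level and so just short of 1.5-fold. Without replicate 1 of E. coli + ACs it passed (log2 -0.66, adjusted p = 0.045). With other ACs or E. coli + ACs libraries left out the adjusted p lay between 0.0655 and 0.115.

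With IFN-γ + E. coli + ACs, the normalized counts of Slfn4 were 362, 473 and 695. Replicate 3 lay above the ACs libraries and the other libraries below them. Against ACs the log2 change was -0.38 (SE 0.17, adjusted p = 0.088 by limma), and without replicate 3 it was -0.63 and passed the threshold (adjusted p = 0.0018). Against IFN-γ + ACs, all 3 libraries were lower, and 2 of the 6 members (29.6% of all genes) did not overlap. Slfn4 was at 0.49 of the level with IFN-γ (log2 -1.03, SE 0.17, adjusted p = 0.00034 by limma). Slfn4 was the only member past the threshold in that comparison, where 14.6% of all genes were, 8.61% as lower, and it passed with each library left out (log2 -1.28 to -0.81). Without replicate 2 of IFN-γ + E. coli + ACs, Slfn2 passed there too. Against E. coli + ACs the log2 difference of Slfn4 was 0.19 (95% interval -0.17 to 0.56, adjusted p = 0.45). Thus the level rose with IFN-γ in the absence of E. coli, whereas with E. coli present no change with IFN-γ was detected. The interaction term, called on the adjusted p alone, was for Slfn4 -0.45 on the log2 scale (SE 0.24, adjusted p = 0.29), so the effects of IFN-γ with and without E. coli were not shown to differ. Without replicate 3 of IFN-γ + E. coli + ACs it was -0.70 and passed.

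Markers of macrophages also differed between these groups. The sum of the 10 markers was highest with IFN-γ + ACs, at 21252 to 29680, followed by ACs at 14177 to 17767. It was lower in the groups given bacteria, at 7375 to 8801 for E. coli + ACs and 9146 to 9285 for IFN-γ + E. coli + ACs. C1qc, which encodes a chain of complement C1q and gave much of this sum, had means of 11870 with IFN-γ + ACs, 8319 with ACs, 2930 with E. coli + ACs and 2337 with the combination. Of the 10 markers, 4 rose and 2 fell with IFN-γ + ACs (11.4% and 9.96% of all genes), 6 fell with E. coli + ACs (5.25%), and 3 rose and 5 fell with the combination (14.7% and 17.2%). The summed markers of eosinophils were lowest with IFN-γ + ACs, at 10002 to 11251 against 16332 to 17750 with ACs. In the IL-4 experiment the macrophage sums reached 29423 with ACs and 26609 with IL-4 + ACs, where Slfn4 did not exceed 515. Both sums were those of the replicate 3 library, which also held the highest Slfn4 of its group, at 515 and 344. Slfn4 was lower in the ACs libraries of this experiment than in those of the Type 1 experiment (log2 difference -0.72). In bulk samples fewer cells of a type and less RNA per cell cannot be told apart, and the part of either cell type in the changes of Slfn4 was not tested. Thymocyte markers, the trace of the ACs, summed to at most 273.54 in any library.

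**Figure D2:**
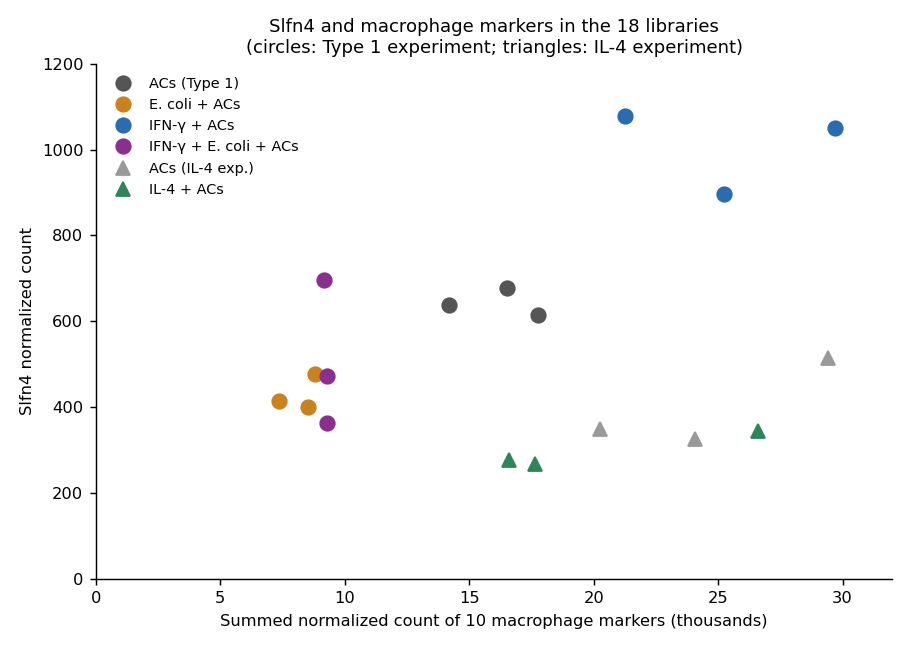
Normalized count of Slfn4 (vertical axis) against the summed normalized count of 10 macrophage markers in units of 1000 (horizontal axis) for each of the 18 libraries, coloured by group. Circles are the Type 1 experiment and triangles the IL-4 experiment. Both measures were highest with IFN-γ + ACs within the Type 1 experiment. The libraries of the IL-4 experiment combine marker sums of 16595 to 29423 with Slfn4 counts of 267 to 515. Within both groups of that experiment, replicate 3 held the highest value of both measures.

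Across the 12 libraries of the Type 1 experiment, the genes with the profile most like Slfn4 among 6745 others with a mean of at least 50 were Ifi204 (Pearson r of log2 values 0.966), Ifi207 (0.964) and Maf (0.960). Ifi204 and Ifi207 encode interferon-inducible nucleic acid sensors of the AIM2-like family, and Maf a transcription factor of macrophages and lymphocytes. The mean normalized count of Ifi204 was 1129 with IFN-γ + ACs and 633 with ACs, and in the groups with bacteria it was 556 with IFN-γ and 497 without. These libraries share their groups and depth, so the values of r describe the profiles.

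Slfn2, the member that maintains quiescence in T cells, was the only one of the 6 past the threshold with IFN-γ + E. coli + ACs, where 31.9% of all genes were, 17.2% as lower. Its normalized counts were 6227, 6047 and 5546 with ACs. With IFN-γ + E. coli + ACs they were 3604, 6659 and 1845. Hence replicate 2 lay above all the ACs libraries and the other libraries below, and the highest was 3.61 times the lowest. The log2 change was -0.75 (SE 0.27, adjusted p = 0.037 by limma), which is 0.596 of the ACs level. Against E. coli + ACs, with 6531, 6266 and 7140, it was -0.91 (SE 0.27, adjusted p = 0.020). Slfn2 was again the only member past the threshold in that comparison, where 19.4% of all genes were, 9.57% as lower. Both SEs rest on a spread pooled over all groups of the Type 1 experiment, so the p-values do not measure that of the compared groups alone. The SD of Slfn2 was 2436 with IFN-γ + E. coli + ACs, 353 with ACs and 448 with E. coli + ACs.

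The call for Slfn2 against ACs rested on single libraries and on the method. It was lost by edgeR (log2 -0.56, adjusted p = 0.092), by DESeq2 (log2 -0.55, adjusted p = 0.25), and without any of the ACs libraries or without replicates 1 or 3 of IFN-γ + E. coli + ACs. Without replicate 3 the log2 change was -0.28 (adjusted p = 0.25), and without replicate 2 it was -1.20 (adjusted p = 7.4e-05). Against E. coli + ACs it was lost without replicate 3 of IFN-γ + E. coli + ACs (log2 -0.44), without replicates 1 or 3 of E. coli + ACs, and by DESeq2. Without replicate 2 of IFN-γ + E. coli + ACs the interaction term of Slfn2 was -1.25 and passed, against -0.79 (SE 0.38, adjusted p = 0.23) with all libraries.

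The base composition of each library was examined beside these values. For each library, the log2 deviation of 6746 genes from their group mean was set against the GC content of the last 500 transcript bases. The correlation across genes was -0.472 in replicate 3 of IFN-γ + E. coli + ACs and 0.377 in replicate 2, and lay between -0.329 and 0.223 in the other libraries. The 3′ end of Slfn2 has a GC content of 55.4%, at percentile 93.1 of the genes tested, whose median is 43.4%. Its deviation was -1.41 in replicate 3 and 1.37 in replicate 2, at percentiles 0.5 and 99.5 of all genes in these libraries. In the IL-4 experiment, Slfn2 deviated by 0.013, -0.013 and 0.0 in replicates 1, 2 and 3 of IL-4 + ACs (correlations -0.203, -0.161 and 0.214). In replicates 1, 2 and 3 of its ACs, Slfn2 deviated by 0.068, 0.304 and -0.372 (correlations -0.023, 0.136 and -0.08). The part of base composition in the spread of Slfn2 was not tested beyond the correction described next. Slfn4, with a GC content of 33.4% (percentile 9.1), deviated in the opposite direction in replicate 3, by 0.75 (percentile 97.4). It deviated by -0.086 (percentile 45.1) in replicate 2 and by -0.66 (percentile 3.8) in replicate 1, where the correlation was 0.124. In replicates 3 and 2 of this group, Slfn1 (GC content 48.8%) deviated by -0.206 and -0.112, and Slfn9 (51.0%) by -0.053 and 0.274. Slfn5 (37.2%) deviated by 0.196 and -0.081, and Slfn8 (46.2%) by -0.047 and -0.397. The genes most like Slfn2 over the 12 libraries were Eif5a (r = 0.984), Fkbp8 (0.966) and Ldb1 (0.964). They encode a translation factor, a chaperone of the outer mitochondrial membrane and a transcription cofactor. Their 3′ ends had GC contents of 53.0%, 60.8% and 52.8%. For Ifi204, Ifi207 and Maf, the genes most like Slfn4, these were 35.2%, 35.8% and 41.0%. All were picked by likeness to Slfn2 or Slfn4 in these same libraries, so their GC contents are a description only.

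When the GC trend of each library was removed, a correction chosen after these values were seen, the log2 change of Slfn2 with IFN-γ + E. coli + ACs was -0.45 and no longer passed the threshold (adjusted p = 0.093). That of Slfn4 against ACs became -0.52 (adjusted p = 0.010), short of 1.5-fold. Slfn4 with IFN-γ + ACs still passed (log2 0.60, adjusted p = 0.0049). Against E. coli + ACs, Slfn2 still passed after the correction and Slfn1 passed as well.

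**Figure D3:**
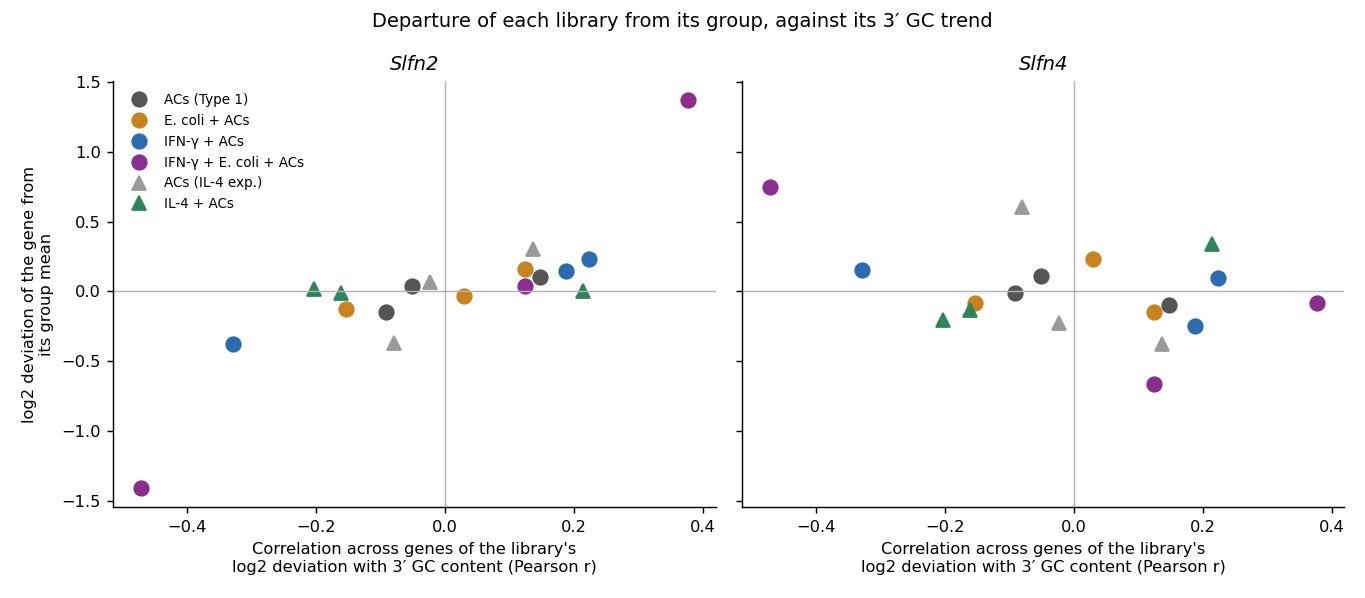
Departure of Slfn2 (left) and Slfn4 (right) in each of the 18 libraries (log2, vertical axis). The horizontal axis is the correlation across genes of the library's deviations with 3′ GC content (Pearson r). Departures are from the mean of the other libraries of the group, which the axis names group mean. Within a group they therefore balance out and are not independent points. For Slfn2 the libraries at the 2 ends, replicates 3 and 2 of IFN-γ + E. coli + ACs, hold the lowest and highest departures, -1.41 and 1.37. For Slfn4 the highest departure, 0.75, is in replicate 3 of the same group.

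Slfn1, the founding member, was highest with IFN-γ + E. coli + ACs. Its normalized counts there were 2221, 1820 and 1743. With ACs they were 1534, 1411 and 1446, and the groups did not overlap. Not overlapping between these groups was seen for 2 of the 6 members and for 48.8% of all genes. The log2 change was 0.39 (SE 0.11, adjusted p = 0.011 by limma), which is 1.31-fold and under the fold threshold. Under the upper quartile scaling, which moved the median log2 change of all genes in this comparison from -0.05 to -0.19, it was 0.25 (adjusted p = 0.092). Neither IFN-γ (log2 0.15, 95% interval -0.09 to 0.39) nor E. coli (log2 -0.07, interval -0.31 to 0.17) alone gave an adjusted p under 0.05. Against E. coli + ACs the change with IFN-γ was 0.46 (SE 0.11, adjusted p = 0.0067), under 1.5-fold, and Slfn1 alone of the 6 did not overlap there, against 39.3% of all genes. The interaction term was 0.31 (SE 0.16, adjusted p = 0.28). The profiles most like Slfn1 were those of Tmem184b (r = 0.963), Ago2 (0.921), the Argonaute protein that cleaves RNA guided by small RNAs, and Uba7 (0.912), the enzyme that activates ISG15 for conjugation to proteins.

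Among the long members, changes were small in the Type 1 experiment. The normalized counts of Slfn5, a nuclear protein that restricts viral transcription in human cells, were 1822, 1933 and 2059 with ACs. With IFN-γ + E. coli + ACs they were 1521, 1545 and 1756, all lower. The log2 change was -0.27 (SE 0.10, adjusted p = 0.045), which is 0.829 of the ACs level. With IFN-γ + ACs they were 1617, 1847 and 1748, and with E. coli + ACs they were 1778, 1703 and 1669. In neither was the adjusted p under 0.05. Slfn5 thus varied 1.35-fold between the highest and lowest of the 12 libraries.

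Slfn8, which is linked to T cell development and proliferation, had normalized counts of 668, 511 and 717 with ACs. With IFN-γ + E. coli + ACs they were 1014, 687 and 807, and the groups overlapped (log2 change 0.40, SE 0.16, adjusted p = 0.049). This is 1.32-fold, under the threshold, and without replicate 1 of IFN-γ + E. coli + ACs the change was 0.25. With E. coli + ACs and IFN-γ + ACs the counts lay between 589 and 752, within 0.11 of ACs on the log2 scale.

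Slfn9 was measured on 12 to 185 reads per library. Its normalized counts ranged from 93.2 to 142 over the 12 libraries of the Type 1 experiment. Every pair of neighbouring groups overlapped, and no comparison gave an adjusted p under 0.05. The 95% interval of its log2 change was -0.55 to 0.25 with IFN-γ + E. coli + ACs and -0.37 to 0.43 with IFN-γ + ACs, so changes of 1.5-fold or more in either direction lie outside both.

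The 3 members with an ISRE match in the window shown above, Slfn5, Slfn8 and Slfn9, had log2 changes of -0.16, 0.11 and 0.03 with IFN-γ + ACs. For the interaction of IFN-γ and E. coli, none of the 6 members passed by limma, edgeR or DESeq2, and none had an unadjusted p under 0.05, where 7.76% of all genes passed. Between pairs of members, the correlation of log2 values over the 12 libraries ranged from -0.593 (Slfn1 and Slfn5) to 0.697 (Slfn1 and Slfn8).

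**Figure D4:**
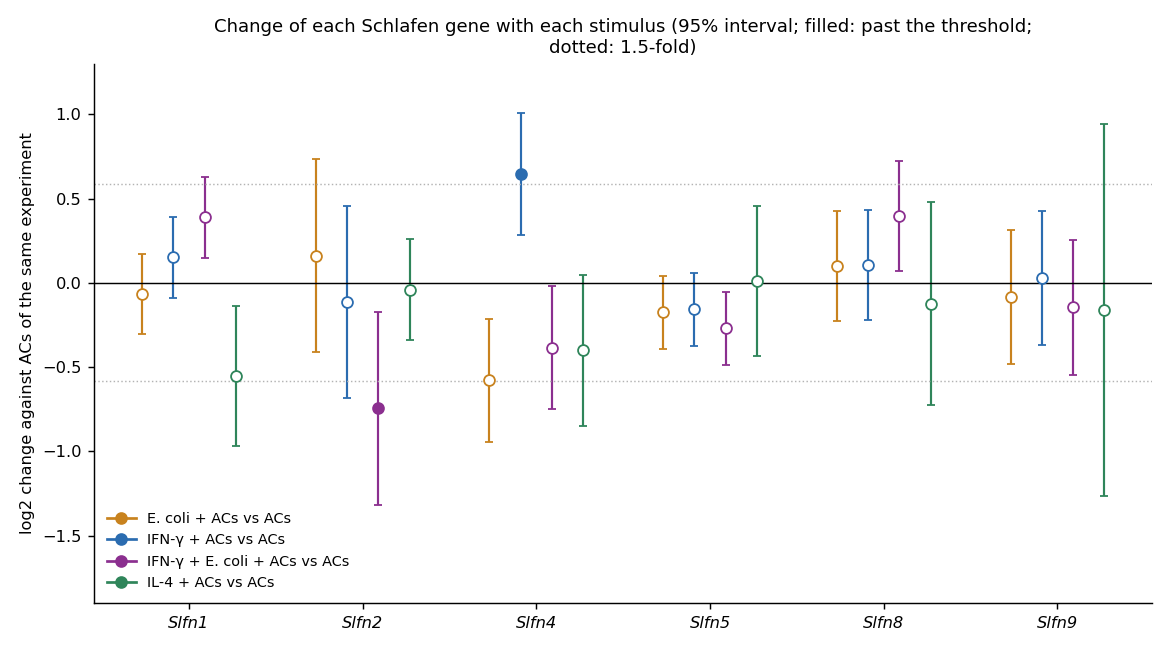
log2 change of each Schlafen gene (horizontal axis) with each stimulus against ACs of the same experiment (vertical axis), with 95% intervals from limma. Filled points pass the threshold and dotted lines mark 1.5-fold. Only Slfn4 with IFN-γ + ACs (0.64) and Slfn2 with IFN-γ + E. coli + ACs (-0.75) are filled.

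With IL-4 + ACs, no Schlafen gene passed the threshold by limma, edgeR or DESeq2, and 1 had an unadjusted p under 0.05. Of all genes, 1.09% passed. The gene with the low p was Slfn1. Its normalized counts were 915, 989 and 1174 with ACs in the IL-4 experiment. With IL-4 + ACs they were 578, 638 and 915, so the highest value with IL-4 lay just below the lowest without. Such separation was seen for 17.3% of all genes. The log2 change was -0.55 (SE 0.19, 95% interval -0.97 to -0.14, adjusted p = 0.36 by limma). The shallow replicate 3 library was the highest in both groups. When both replicate 3 libraries were left out the change was -0.65 and passed (adjusted p = 0.0034), as it did with a weight per library (log2 -0.62, adjusted p = 0.00067).

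For Slfn4 the counts were 350, 326 and 515 with ACs and 267, 276 and 344 with IL-4 + ACs. The groups overlapped, and the log2 change was -0.40 (95% interval -0.85 to 0.05, adjusted p = 0.56). Slfn2 was at 3600, 4016 and 2938 with ACs and at 3412, 3372 and 3392 with IL-4 + ACs, a log2 change of -0.04 (95% interval -0.34 to 0.26). For Slfn5 the change was 0.01 (interval -0.44 to 0.46) and for Slfn8 it was -0.13 (interval -0.73 to 0.48). Slfn9 had counts of 80.5, 42.0 and 220 with ACs, where the last is the shallow library with 41 reads, and its log2 change of -0.16 turned to 0.67 when both replicate 3 libraries were left out. In that ACs library, deviations were taken from the mean of the other libraries of the group, as above. They were 1.90 for Slfn9 (percentile 99.8 of all genes), 0.87 for Slfn8, 0.77 for Slfn5 and 0.61 for Slfn4.

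The response to IL-4 and that to IFN-γ, each against the ACs of its own experiment, were then compared directly, with calls on the adjusted p alone. The change with IL-4 was below that with IFN-γ by 1.05 log2 units for Slfn4 (difference -1.05, SE 0.27, adjusted p = 0.012 by limma) and by 0.70 for Slfn1 (difference -0.70, SE 0.21, adjusted p = 0.026). These are 2 of 6 members, where 14.7% of all genes passed, 8.37% with the lower change for IL-4. For Slfn4 the difference passed with each of the 18 libraries left out. For Slfn1 it was lost without replicate 2 or 3 of ACs in the Type 1 experiment, replicate 1 of IFN-γ + ACs, replicate 1 or 2 of IL-4 + ACs, or replicate 3 of ACs in the IL-4 experiment, with log2 differences from -0.90 to -0.57 over all libraries left out. For the other 4 members the difference lay between -0.23 and 0.17 and did not pass.

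Between the ACs libraries of the experiments, to which no stimulus was added, 4 of the 6 members were lower in the IL-4 experiment than in the Type 1 experiment, where 19.2% of 10592 genes passed, 8.53% as lower. Slfn8 was at 253, 211 and 424 against 668, 511 and 717, a log2 difference of -1.14 (SE 0.24, adjusted p = 0.0077), or 0.453 of the level. Slfn2 was lower by 0.77 log2 units (difference -0.77, SE 0.13, adjusted p = 0.0026), Slfn4 by 0.72 (difference -0.72, adjusted p = 0.013) and Slfn5 by 0.63 (difference -0.63, adjusted p = 0.040). For Slfn1 the difference was -0.52 (adjusted p = 0.013), short of 1.5-fold, and for Slfn9 it was -0.39 (95% interval -1.42 to 0.64). No overlap was seen for 5 of the 6 members and for 42.2% of all genes. The median over the 6 members was -0.68, against 0.02 over all genes tested.

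Without replicate 3 of ACs in the IL-4 experiment, the library in which most members ran high, all 6 passed as lower. With replicate 1 of that group, or replicate 2 or 3 of ACs in the Type 1 experiment, left out, Slfn2 and Slfn8 still passed and the count was 2. The labels do not say whether mice, culture or library making differed between the experiments. Which of these the difference goes with cannot be told apart. Macrophage marker sums in these ACs libraries were higher in the IL-4 experiment, 20237 to 29423, than in the Type 1 experiment, 14177 to 17767, and eosinophil marker sums were also higher, 21178 to 23791 against 16332 to 17750. Thymocyte marker sums were lower, 55.64 to 89.55 against 139.86 to 185.95. Their part in the difference was not tested.

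Ordered by mean level, the groups of the Type 1 experiment came before those of the IL-4 experiment for Slfn1, Slfn2, Slfn4, Slfn5 and Slfn8. For Slfn1 the order was IFN-γ + E. coli + ACs, IFN-γ + ACs, ACs, E. coli + ACs, ACs of the IL-4 experiment and IL-4 + ACs, where the ranges overlapped only between IFN-γ + ACs and ACs and between ACs and E. coli + ACs. For Slfn4, the ranges from ACs down to IL-4 + ACs all overlapped with the next, and only IFN-γ + ACs at the top stood clear. For Slfn8, the sole gap between neighbours lay between ACs of the Type 1 experiment (mean 632) and ACs of the IL-4 experiment (mean 296). For Slfn2 it lay at the top, between E. coli + ACs (mean 6646) and ACs (mean 5940), a log2 difference of 0.16 (adjusted p = 0.78 by limma). That p rests on a spread pooled with IFN-γ + E. coli + ACs, where the SD was 2436, against 448 and 353 in the groups compared. For Slfn5 and Slfn9 all neighbours overlapped.

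The annotation holds 4 more genes with a Schlafen name. Slfn10-ps, a pseudogene next to Slfn8, had normalized counts of 44.7, 52.6 and 55.5 with ACs. In the libraries of IFN-γ + E. coli + ACs the counts were 14.3, 29.3 and 12.4. It fell (log2 -1.49, SE 0.33, adjusted p = 0.0013), and 17.5% of the 50-base stretches at its 3′ end occur in Slfn8 or Slfn9. Slfn3, whose coding sequence is 92.7% identical to that of Slfn4 over 1785 aligned bases, had at most 11 reads in any library and did not pass the filter. Slfn14, a ribosome-bound nuclease of platelets and red cell precursors, and Slfnl1 had at most 1 read in any library.

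Other genes of the pathways in which Schlafen proteins act were followed as lists. The first list held 18 interferon receptors, their kinases, STATs, interferon regulatory factors and feedback inhibitors, all tested. Of these, 10 rose and 0 fell with IFN-γ + E. coli + ACs, where 14.7% of all genes rose. The median log2 change was 0.59, against -0.05 over all genes. The largest rise was that of Irf1, an interferon regulatory factor, with a log2 change of 2.82 (SE 0.12, adjusted p = 9.3e-13). With IFN-γ + ACs, 7 rose and 1 fell, where 11.4% of all genes rose, and with E. coli + ACs 1 rose and 1 fell, where 5.05% rose. Of 22 interferon-induced antiviral effectors, 11 rose and 0 fell with IFN-γ + E. coli + ACs (median 0.59), 9 rose with IFN-γ + ACs and 4 with E. coli + ACs. The largest rise with the combination was that of Ifit2, which binds viral RNA (log2 1.77, SE 0.16, adjusted p = 7.2e-08). Over the 6 Schlafen genes the median log2 change was -0.21 with the combination, 0.07 with IFN-γ + ACs and -0.07 with E. coli + ACs. With IL-4 + ACs no gene of either interferon list passed, where 1.09% of all genes did. In the ACs libraries of the IL-4 experiment, 8 of the 18 and 13 of the 22 were lower than in the Type 1 experiment and 0 were higher, against 8.53% lower and 10.7% higher over all genes.

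Of 14 genes of cell quiescence, 2 rose and 4 fell with IFN-γ + E. coli + ACs, where 14.7% of all genes rose and 17.2% fell. Cdkn1a, an inhibitor of cyclin-dependent kinases, had the largest rise (log2 1.28, SE 0.12, adjusted p = 9.9e-08) and Klf2, a transcription factor of quiescent lymphocytes, the largest fall (log2 -1.64, SE 0.15, adjusted p = 6.9e-08). Of 18 proliferation genes, 14 were tested, and 1 rose, also no larger a share than over all genes, Ccne1, which encodes cyclin E1 (log2 1.42, SE 0.43, adjusted p = 0.013). Of 12 genes of transfer RNA processing and methylation and of ribonucleases, 10 were tested and 2 fell, a share near that of all genes. The larger fall was that of Trmt1, a transfer RNA methyltransferase (log2 -1.08, SE 0.31, adjusted p = 0.0093). The other was Dnmt1, which methylates DNA.

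**Figure D5:**
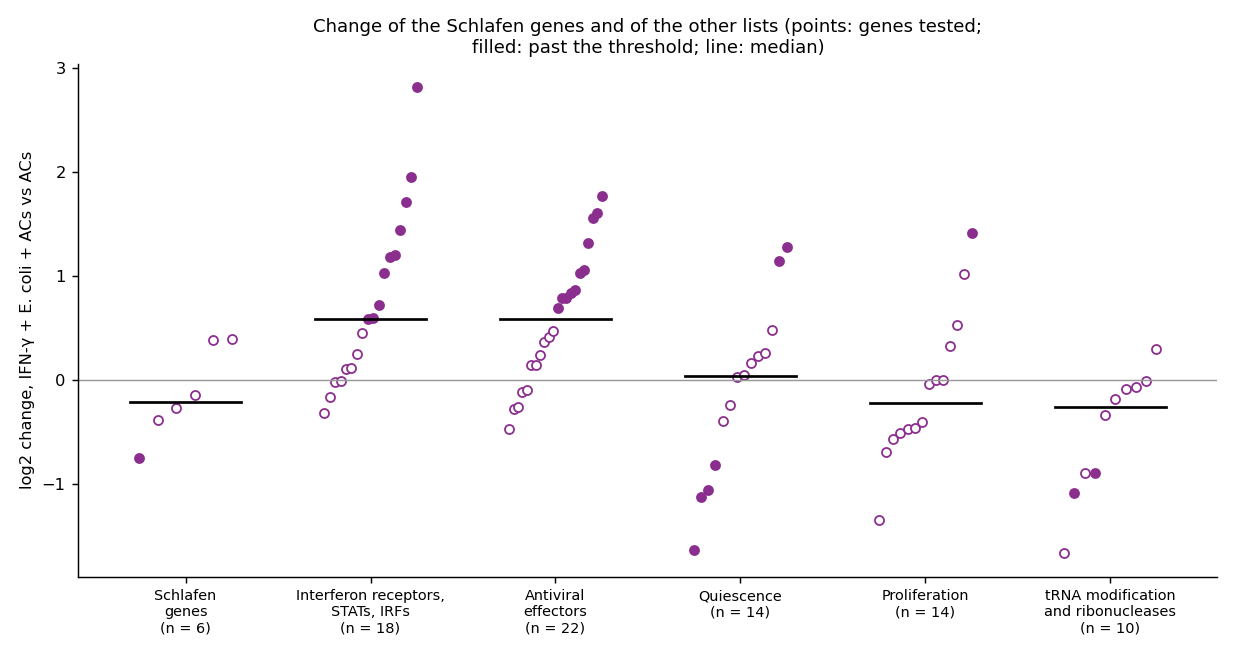
log2 change with IFN-γ + E. coli + ACs against ACs (vertical axis) for the genes tested in each list (horizontal axis, with their number). Points are genes, filled where past the threshold, and lines are medians. The medians of both interferon lists lie at 0.59, and that of the 6 Schlafen genes at -0.21.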

How the data were processed

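The deposited signal is the number of reads on a gene after division, by the authors, by the size factor that DESeq2 gave its library. The submitters' notes and the paper's methods name TopHat2 2.1.0, HTSeq 0.6.1 (uniquely mapped reads, union mode) and GRCm38. A second pipeline is also described, and which of them made this table, and whether reads were collapsed by molecular identifier, is not given in the sources used here. Values are whole multiples of a step per library, so whole reads were recovered for 100.0% of them (within 0.05 of a step).

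The members and all lists were chosen with earlier results of these data known. limma 3.58.1 (R 4.3.3) was fitted with a trend to log2(value + 1) of genes with a mean of at least 10, with Benjamini-Hochberg adjustment. The Type 1 comparisons used its 12 libraries, IL-4 + ACs the 6 of its experiment, the ACs comparison the 3 ACs libraries of each experiment, and the contrast of changes all 18. Each fit pooled the spread of a gene over its groups. Fold changes are on the log2(value + 1) scale. Alternatives were edgeR 4.0.16 and DESeq2 1.42.0 on recovered reads, a pseudocount of 5, other filters, the replicate number, other scalings, library weights, removal of the GC trend and each library left out. In simulated data with 200 genes changed 4-fold, limma recovered 99% in the combined stimulus, 90.5% in IL-4 and 86.5% in the contrast of changes. The Schlafen changes were all smaller than 4-fold, so these shares do not give the recovery at their size. Named genes were the 6 members, other Schlafen genes, the largest rise and fall of each list with the combined stimulus and, for each member, the profiles most like it. Some genes are not reported here. Replicates differed by more than counting error in every group (chi-square per degree of freedom 3.92 to 13.15). With 3 libraries a group, the smallest p of an exact permutation test (two-sided) is 0.10, so none was used. Gene models are from GENCODE and promoters from RefSeq. Figures were drawn with matplotlib 3.10.9 in Python 3.11.15.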

Additional observations from a re-analysis of the deposited data

Results flagged for a closer look

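The change with IL-4 + ACs and the change with IFN-γ + ACs, each against ACs of the same experiment, differed for 2 of the 6 Schlafen genes by a direct test of the difference with limma, where 14.7% of 10414 genes passed, 8.37% as lower. For Slfn4 the difference was -1.05 on the log2 scale (adjusted p = 0.012), where every library with IFN-γ lay above its ACs and the libraries with IL-4 overlapped with theirs. For Slfn1 the difference was -0.70 (adjusted p = 0.026), where neither change passed the threshold by itself. The call for Slfn1 was lost without any of 6 single libraries and with all genes above 0 tested.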

How the results depend on the processing

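Under the alternatives other than leaving out single libraries in turn, 507 of 540 log2 changes of single members kept their direction and their side of the threshold, and 18 changed sign. The number of Schlafen genes past the threshold with E. coli + ACs was 1 in place of 0 with the upper quartile scaling and by edgeR. With IFN-γ + ACs it was 0 in place of 1 with the upper quartile scaling. With IFN-γ + E. coli + ACs it was 0 in place of 1 by edgeR, by DESeq2, with the GC trend removed and with all genes above 0 tested. Against E. coli + ACs that count was 0 by DESeq2 and 2 with the GC trend removed, in place of 1. With IL-4 + ACs it was 1 in place of 0 with library weights and with both replicate 3 libraries left out. For the contrast of the IL-4 and IFN-γ changes it was 1 in place of 2 with all genes above 0 tested. Between the ACs of the experiments it was 6 with library weights, which added Slfn1 and Slfn9, and 5 with the GC trend removed, which added Slfn1, in place of 4. The cause was not tested. For all genes, the upper quartile scaling moved the split of higher and lower calls with IFN-γ + E. coli + ACs from 1494 and 1746 to 1147 and 2219, and against E. coli + ACs from 995 and 973 to 763 and 1366.

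With 1 library left out, the count ranged from 0 to 1 with E. coli + ACs and stayed at 1 with IFN-γ + ACs. With IFN-γ + E. coli + ACs it ranged from 0 to 1 against ACs, from 0 to 1 against E. coli + ACs and from 1 to 2 against IFN-γ + ACs. It ranged from 0 to 1 for the interaction, was 0 throughout with IL-4 + ACs, and ranged from 1 to 2 for the contrast of changes and from 2 to 6 between the ACs of the experiments.

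All log2 changes that changed sign had missed the threshold with all libraries. With the upper quartile scaling they were -0.064 for Slfn9 with IFN-γ + ACs and -0.0022 for Slfn5 with IL-4 + ACs. With library weights they were -0.021 for Slfn9 with IFN-γ + ACs, 0.31 for Slfn9 with IL-4 + ACs, and -0.053 for Slfn2 and 0.34 for Slfn9 in the contrast of changes. By edgeR they were -0.0020, 0.028 and 0.0075 for Slfn9 with IFN-γ + ACs, with IL-4 + ACs and in the contrast of changes, and by DESeq2 -0.011 for Slfn5 with IL-4 + ACs. With the GC trend removed, with IFN-γ + E. coli + ACs they were 0.0049 for Slfn9 against ACs, and -0.015 for Slfn4 and 0.12 for Slfn9 against E. coli + ACs. In the same fit they were -0.027 for Slfn5 and 0.066 for Slfn9 in the interaction, and 0.039 for Slfn2 and -0.0083 for Slfn5 with IL-4 + ACs. Without both replicate 3 libraries Slfn9 was at 0.67 with IL-4 + ACs.

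With 1 library left out, the log2 change with E. coli + ACs ranged from -0.046 to 0.20 for Slfn8 and from -0.25 to 0.052 for Slfn9. With IFN-γ + ACs it ranged from -0.19 to 0.012 for Slfn2, from -0.038 to 0.21 for Slfn8 and from -0.084 to 0.12 for Slfn9. Between IFN-γ + E. coli + ACs and E. coli + ACs it ranged from -0.054 to 0.42 for Slfn4 and from -0.20 to 0.10 for Slfn9. The interaction ranged from -0.0046 to 0.11 for Slfn5 and from -0.23 to 0.077 for Slfn9. With IL-4 + ACs the ranges were -0.16 to 0.061 for Slfn2, -0.16 to 0.27 for Slfn5, -0.34 to 0.17 for Slfn8 and -0.71 to 0.47 for Slfn9. In the contrast of changes they were -0.053 to 0.17 for Slfn2, -0.0047 to 0.42 for Slfn5, -0.44 to 0.058 for Slfn8 and -0.73 to 0.44 for Slfn9, and between the ACs of the experiments -1.02 to 0.16 for Slfn9.

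For libraries with the same replicate number, deviations from the group means correlated between -0.089 and 0.085. The labels give no pairing of these libraries, and low correlations cannot exclude one. With the replicate number as a block, every count of members past the threshold was as without it, and Slfn2 with IFN-γ + E. coli + ACs stood at an adjusted p of 0.019 (limma). Depth limits Slfn9 most, with 12 and 41 reads in replicate 3 of IL-4 + ACs and of its ACs.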

Other observations

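Over the 12 libraries of the Type 1 experiment, the profiles closest to Slfn5 were those of Mrpl42 (r = 0.945), a mitochondrial ribosomal protein, Fam126b (0.934) and Tep1 (0.887), a telomerase-associated protein. For Slfn8 they were Zkscan6 (r = 0.924), a zinc finger protein, Recql (0.914), a DNA helicase, and Copa (0.883), a coat protein of Golgi vesicles. For Slfn9 they were Gpalpp1 (r = 0.830), Gm6545 (0.822) and Gm42726 (0.805). The range of Slfn9 over these libraries was 1.53-fold, so its r rests on little variation.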
